A study of Mus musculus with 16 samples.

Results

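The 9 genes described here encode the NF-kB subunits and the kinases directly upstream of them. They are Rela, Relb, Rel, Nfkb1 and Nfkb2 for the subunits, and Ikbkb, Ikbkg, Chuk and Map3k14 for the kinase side. They were taken by name from the 55414 genes of a table of read counts. Earlier results of these data were known when they were chosen. The libraries came from Paneth cells, the antimicrobial secretory cells of the crypt base, sorted by FACS from the small intestine of C57BL/6J mice. Each mouse received PBS or DEX and, 1 h later, a second injection of PBS or tumor necrosis factor (TNF), and was sampled 3 h after that. The 4 groups are named by the order of the injections. PBS+PBS received the vehicle at both times, PBS+TNF the vehicle and then TNF, DEX+PBS DEX and then the vehicle, and DEX+TNF DEX and then TNF. Every group holds 4 libraries, so that 16 libraries were compared. No genetic change is given for any group, and doses and ages are not given in the sources used here. The study's text describes its libraries as made from individual mice. DEX is the usual short form of dexamethasone, a synthetic glucocorticoid, although the sources do not write the name out.

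NF-kB is a family of dimeric transcription factors. Rela, Relb and Rel carry a transactivation domain, whereas Nfkb1 and Nfkb2 encode the precursors p105 and p100, which are processed to the DNA-binding subunits p50 and p52. In resting cells the dimers are held in the cytoplasm by IkB proteins. In the canonical route a TNF receptor activates the IKK complex, built from the kinases IKK-alpha (Chuk) and IKK-beta (Ikbkb) and the regulatory subunit NEMO (Ikbkg), and this complex marks IkB for degradation. In the noncanonical route the kinase NIK (Map3k14) acts through IKK-alpha, p100 is processed to p52, and dimers of Relb and p52 enter the nucleus. Glucocorticoids are known to restrain NF-kB target genes in many cells. The comparisons ask how RNA of the pathway's own components stood after TNF, after DEX, and after TNF that followed DEX.

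Library totals ran from 7286307 to 15832111 counts, and all 9 genes passed the filter on low counts, with 6 to 3899 counts per library. All pairs of libraries within a group differed beyond sampling noise, the closest being DEX+TNF libraries 1 and 2, with a chi-square of 8.78 per degree of freedom. The other pairs ran from 23.5 (PBS+PBS libraries 2 and 3) to 344 (PBS+TNF libraries 1 and 4). Why DEX+TNF libraries 1 and 2 were closer than any other pair was not tested. Levels are given as normalized CPM, that is, library-size-scaled counts (CPM) adjusted by trimmed mean of M-values (TMM) factors, which ran from 0.418 to 1.50. In the markers of the sort, 9 Paneth cell genes made up 431800 to 657600 plain CPM in every library. Of 8 lymphocyte markers, 6 had no count in any library, and the list summed to at most 31.5 plain CPM, in DEX+TNF library 4. The next highest sum was 5.86 in PBS+TNF library 4. Of 6 stromal and endothelial markers, 3 had no count. Other lists were higher: the goblet cell markers summed to 1301 to 9454 plain CPM, with both ends in PBS+TNF. Stem and cycling cell markers summed to 215 to 1991, highest in DEX+TNF library 4, and myeloid markers to 23.9 to 106. The myeloid sum was nearly all Lyz2, with group means of 42.6 to 71.6 normalized CPM. Every other myeloid marker had group means of at most 0.246. Sgk1, a gene induced by glucocorticoids, was 1.11 to 7.94 normalized CPM in the 8 libraries without DEX and 17.6 to 115 in the 8 libraries with it. Nfkbia, a gene induced by TNF through NF-kB that encodes IkB-alpha, was 277 to 337 in PBS+TNF and 15.6 to 27.3 in the groups without TNF. In DEX+TNF it was 330 and 382 in libraries 1 and 2, but 28.3 and 41.0 in libraries 3 and 4. These 2 libraries thus stood apart for a TNF-induced gene while their Sgk1 levels were 33.6 and 115. Their summed tuft cell markers were 156 and 580 normalized CPM, against 0.162 and 1.45 in libraries 2 and 1. In the other groups, tuft sums reached 128 in PBS+TNF library 4 and 95.6 in DEX+PBS library 1. Summed enteroendocrine markers were 15.9 and 11.6 in DEX+TNF libraries 3 and 4, against 0.0807 and 0 in libraries 1 and 2. They reached 10.1 in DEX+PBS library 4. The goblet and myeloid sums of DEX+TNF library 4, at 2327 and 21.8, were the lowest of that group. The summed enterocyte markers were 409 in DEX+TNF library 4 and 279 in PBS+PBS library 4. The part of these markers in the results below was not tested, and results of DEX+TNF are given with and without libraries 3 and 4. Since the cells were measured in bulk, fewer cells with a transcript and less transcript per cell cannot be told apart.

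RefSeq promoter windows (assembly GRCm38.p6, 250 bases before to 50 bases after an annotated start) were on hand for 6 of the 9 genes, in 11 windows. The kB consensus, the sequence that NF-kB dimers bind, was searched on both strands. It was found in 8.46% of all 32851 windows, and 9.55% of 27025 genes held it in at least 1 window. Among the 6 genes, Rel and Nfkb2 held it, and the windows of Rela, Ikbkg, Chuk and Map3k14 did not. Rel and Nfkb2 are shown because they were among the genes with the largest TNF response below, and Rela because it also responded while its window held no match. The 250 bases before each start are printed 5′ to 3′ in the direction of transcription, with matches in capitals. They cover chr11:23770970-23771219 (minus strand) for Rel, chr19:46304487-46304736 (plus strand) for the first window of Nfkb2, and chr19:5637291-5637540 (plus strand) for Rela.
Rel: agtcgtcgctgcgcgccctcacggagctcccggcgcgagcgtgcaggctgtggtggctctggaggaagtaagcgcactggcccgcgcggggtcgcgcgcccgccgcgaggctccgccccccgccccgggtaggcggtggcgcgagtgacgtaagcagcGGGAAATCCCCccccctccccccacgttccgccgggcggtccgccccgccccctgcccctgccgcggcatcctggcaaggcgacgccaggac
Nfkb2: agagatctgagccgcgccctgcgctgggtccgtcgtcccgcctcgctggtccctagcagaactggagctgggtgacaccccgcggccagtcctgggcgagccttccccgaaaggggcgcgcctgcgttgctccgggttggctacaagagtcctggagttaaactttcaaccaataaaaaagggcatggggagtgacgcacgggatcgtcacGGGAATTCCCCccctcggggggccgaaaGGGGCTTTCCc
Rela: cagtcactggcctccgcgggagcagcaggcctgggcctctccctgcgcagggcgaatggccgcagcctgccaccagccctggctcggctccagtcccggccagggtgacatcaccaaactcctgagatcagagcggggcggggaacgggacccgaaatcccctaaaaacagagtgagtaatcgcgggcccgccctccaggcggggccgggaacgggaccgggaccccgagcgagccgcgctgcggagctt

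In Rel, 2 matches overlapped in a single run of capitals between 92 and 82 bases before the start. In the first window of Nfkb2, 2 overlapping matches lay 39 to 29 bases before the start and another lay 11 to 2 bases before it. The other 2 windows of Nfkb2, around later annotated starts, also held matches, of which 1 site, GGGACTTTCC, lay in both windows. A match is a description of the letters and not of binding, and a window without a match says only that the letters were not in those bases.

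After TNF alone, all 5 subunit genes rose and the kinase side split. Beside PBS+PBS, PBS+TNF was higher for Rela, Relb, Rel, Nfkb1, Nfkb2 and Map3k14, which makes 6 of 9 genes, and lower for Ikbkg, which makes 1 of 9. Across all 11809 genes tested, 7.15% were called higher and 5.35% lower, 12.5% in all, at an adjusted p under 0.05 in edgeR's quasi-likelihood test. Chuk and Ikbkb did not pass that threshold. The 4 PBS+TNF libraries all lay above the 4 PBS+PBS libraries for 7 of 9 genes, and all lay below them for 1 gene; over all genes tested, this held for 10.8% and 8.64%. In the same comparison 2 of 6 stem and cycling cell markers were called lower, Lgr5 with a log2 fold change of -1.58 (± 0.39 SE, adjusted p = 0.0139 by edgeR) and Smoc2 with -0.80 (± 0.21 SE, adjusted p = 0.0207 by edgeR). The others were not called, with -1.30 for Ascl2, -0.33 for Olfm4, and -0.04 and 0.21 for the cycling markers Top2a and Mki67. The 6 markers summed to 523 to 789 normalized CPM in PBS+PBS and 324 to 900.5 in PBS+TNF, so that the sums overlapped, and none of the 6 was at 0 in all libraries. Their part in the changes of the 9 genes was not tested.

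Rel, which encodes c-Rel, gave the largest change of the 9. The gene (ENSMUSG00000020275) lies at chr11:23686847-23721264 on the minus strand of GRCm39 and is protein-coding, with 10 exons in its canonical transcript. In PBS+PBS its level was 1.71, 1.40, 2.19 and 0.754 normalized CPM in libraries 1 to 4, which rests on 6 to 41 counts. After PBS+TNF it was 29.1, 47.6, 22.9 and 35.7. The lowest TNF library therefore lay about an order of magnitude above the highest control. The fitted log2 fold change was 4.43 (± 0.65 SE, adjusted p = 0.000906 by edgeR), and the means stood in a ratio of 22.3. Rel was nevertheless the least abundant of the 5 subunits per kilobase of exon in both groups, at 0.195 ± 0.0775 and 4.36 ± 1.37 CPM per kilobase (SD, n = 4).

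Relb and Nfkb2, the pair of the noncanonical dimer, followed in size. Relb (ENSMUSG00000002983, chr7:19339017-19363425, minus strand, protein-coding) was 7.80, 5.94, 9.56 and 4.77 normalized CPM in PBS+PBS. It was 62.8, 101, 89.5 and 98.1 in PBS+TNF, a log2 fold change of 3.64 (± 0.66 SE, adjusted p = 0.00258 by edgeR). Nfkb2 (ENSMUSG00000025225, chr19:46292759-46303812, plus strand, protein-coding) was 16.1, 21.1, 22.4 and 14.4 in PBS+PBS. After PBS+TNF it reached 149, 214, 162 and 193, the highest normalized CPM of the 9 genes. Its log2 fold change was 3.27 (± 0.64 SE, adjusted p = 0.00382 by edgeR). For both genes, the groups were far apart, and the spread among TNF libraries was small beside the gap.

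Whether the counting used strand is not stated, and Nfkb2 shares 24.5% of its exon bases with Psd and 13.7% with 4833438C02Rik, both on the opposite strand. Over all libraries these 2 genes had 219 and 1591 counts, against 19400 for Nfkb2. Their own log2 fold changes in the same comparison were 1.11 (SE 1.19) and 0.96 (SE 0.40), with edgeR adjusted p of 0.619 and 0.134.

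Rela and Nfkb1, the genes of the classical p65 and p50 subunits, rose less. Rela (ENSMUSG00000024927, chr19:5687493-5698161, plus strand, protein-coding) was 18.3, 21.1, 23.8 and 6.91 normalized CPM in PBS+PBS, where library 4 was low. In PBS+TNF it was 60.3, 99.1, 62.6 and 95.3, with a log2 fold change of 2.17 (± 0.52 SE, adjusted p = 0.0111 by edgeR). Nfkb1 (ENSMUSG00000028163, chr3:135290264-135397742, minus strand, protein-coding) was 19.7, 24.6, 30.7 and 10.3 in PBS+PBS, with the same library lowest. It was 62.6, 87.7, 63.5 and 92.3 in PBS+TNF, a log2 fold change of 1.84 (± 0.44 SE, adjusted p = 0.0120 by edgeR). All 5 subunit calls stood in each alternative listed for this comparison, including those that left out any single library. The 95% intervals of the 5 log2 fold changes overlapped in part, from 0.90 to 2.77 for Nfkb1 to 3.06 to 5.80 for Rel, and differences between the genes' fold changes were not tested.

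**Figure D1:**
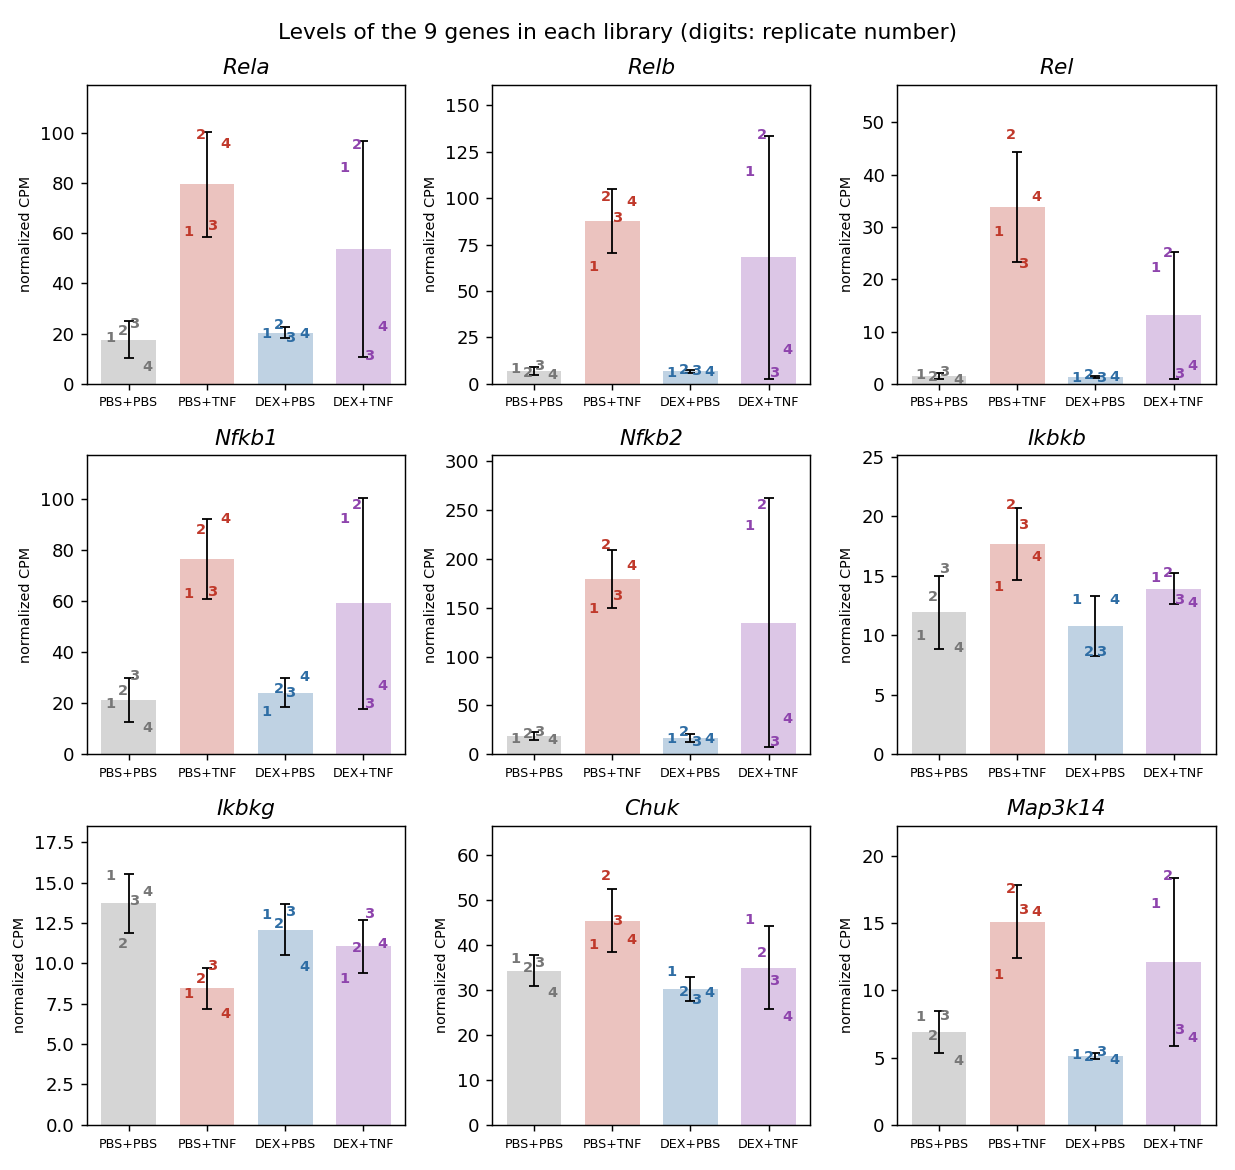
Normalized CPM (y axis, linear, from 0) of the 9 genes in the 4 groups (x axis); digits mark the replicate number of each library, bars the group mean and error bars the SD of 4 libraries. The PBS+TNF libraries sit above all PBS+PBS libraries for the 5 subunits, Chuk and Map3k14 and below them for Ikbkg, whereas DEX+TNF libraries 1 and 2 are high and 3 and 4 low for the 5 subunits and Map3k14.

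On the kinase side, Map3k14, which encodes NIK, was the gene that rose. Map3k14 (ENSMUSG00000020941, chr11:103110577-103158298, minus strand, protein-coding) was 8.05, 6.64, 8.06 and 4.77 normalized CPM in PBS+PBS. It was 11.2, 17.5, 16.0 and 15.8 in PBS+TNF, without overlap. The log2 fold change was 1.13 (± 0.31 SE, adjusted p = 0.0229 by edgeR). The call was close to the threshold: without PBS+PBS library 2 or 4, or PBS+TNF library 2 or 3, the adjusted p was between 0.0518 and 0.0611.

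Ikbkg, which encodes NEMO, was the single member that fell. Ikbkg (ENSMUSG00000004221, chrX:73436216-73500393, plus strand, protein-coding) was 15.4, 11.2, 13.8 and 14.4 normalized CPM in PBS+PBS. It was 8.09, 9.04, 9.84 and 6.88 in PBS+TNF, so that no library of a group reached into the other. The log2 fold change was -0.69 (± 0.19 SE, adjusted p = 0.0259 by edgeR), on 42 to 259 counts per library. The call was lost without the filter on low counts (adjusted p = 0.111) and in a fit of these 2 groups alone (adjusted p = 0.0581). It was also lost without PBS+PBS library 1 or 3, or PBS+TNF library 2 or 4, with adjusted p from just over the threshold to 0.0864. Ikbkg overlaps the opposite-strand genes G6pdx over 526 exon bases and Fam3a over 204; these genes had 3676 and 3302 counts against 2419 for Ikbkg. In the same comparison the log2 fold change of G6pdx was -0.03 (± 0.20 SE, adjusted p = 0.950 by edgeR) and that of Fam3a was -0.48 (± 0.21 SE, adjusted p = 0.149 by edgeR).

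The catalytic subunits of the IKK complex did not pass the test. Ikbkb (ENSMUSG00000031537, chr8:23148709-23196607, minus strand, protein-coding) was 9.94, 13.2, 15.6 and 8.92 normalized CPM in PBS+PBS and 14.1, 20.9, 19.3 and 16.5 in PBS+TNF. The ranges overlapped, and the log2 fold change was 0.57 (95% interval 0.10 to 1.04, edgeR adjusted p = 0.104). Chuk (ENSMUSG00000025199, chr19:44061769-44095935, minus strand, protein-coding) was 36.9, 35.0, 36.0 and 29.4 in PBS+PBS and 40.1, 55.4, 45.3 and 41.1 in PBS+TNF. Its libraries did not overlap, with a log2 fold change of 0.40 (95% interval -0.02 to 0.83, edgeR adjusted p = 0.207). The upper ends of both intervals lay below the estimates for Relb, Rel and Nfkb2.

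**Figure D2:**
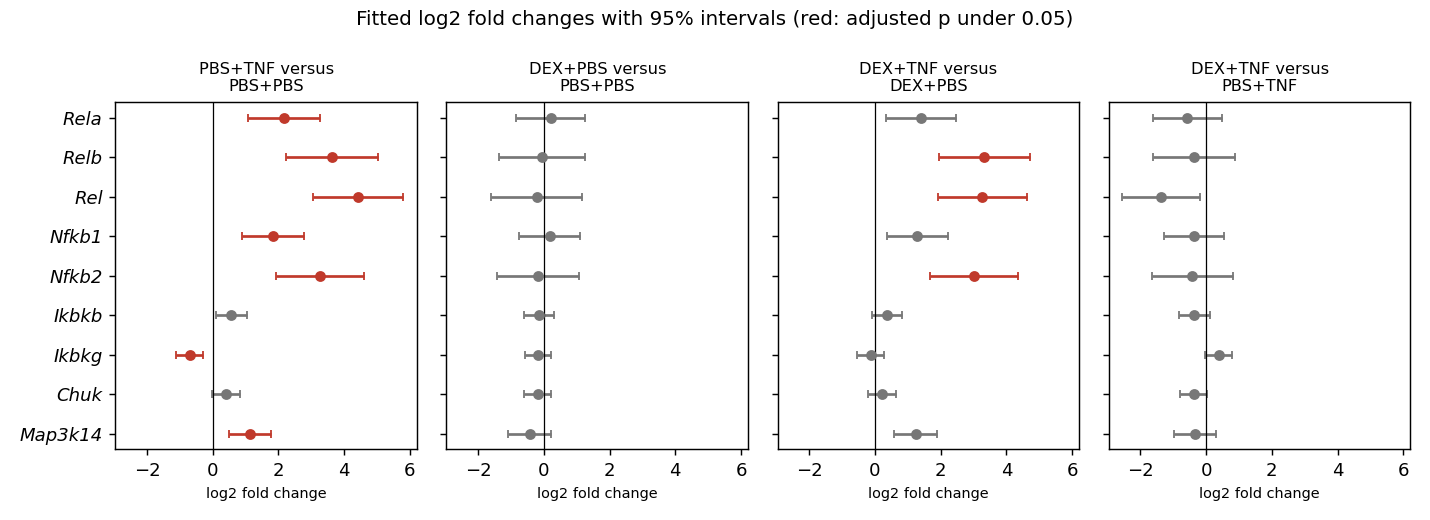
Fitted log2 fold changes (x axis) of the 9 genes (y axis) in the 4 pairwise comparisons; points are edgeR estimates, bars their 95% intervals, and red marks an adjusted p under 0.05. In PBS+TNF versus PBS+PBS, 7 genes are red, from -0.69 for Ikbkg to 4.43 for Rel; in the other panels only Relb, Rel and Nfkb2 in DEX+TNF versus DEX+PBS are.

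To compare the genes with each other, levels were divided by exon length. Per kilobase of merged exons, Chuk and Rela led in PBS+PBS, at 5.72 ± 0.565 and 5.35 ± 2.27 CPM per kilobase (SD, n = 4), which did not differ beyond their spread. They were followed by Nfkb2 at 2.35 ± 0.487, Nfkb1 at 1.66 ± 0.670 and Relb at 1.38 ± 0.414, each within the spread of its neighbor. Map3k14 and Ikbkg came next without differing beyond their spread, at 1.01 ± 0.229 and 1.00 ± 0.133, above Ikbkb at 0.490 ± 0.126, and Rel was last. In PBS+TNF, Rela at 24.2 ± 6.33 and Nfkb2 at 22.7 ± 3.74 led and overlapped, with Relb at 17.3 ± 3.42 next. Chuk at 7.57 ± 1.17 and Nfkb1 at 5.96 ± 1.22 came after them, then Rel, and the other 3 kinase-side genes were at 0.619 to 2.22.

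Part of this order hangs on the length used. Merged exons of Ikbkb span 24325 bases against 3591 in its canonical transcript, and those of Ikbkg and Nfkb1 span 13668 and 12848 against 3332 and 4704. With canonical lengths, a choice made after the data had been seen, Nfkb1 moved to the third place and Ikbkg to the fourth in PBS+PBS, at 4.53 ± 1.83 and 4.12 ± 0.546 CPM per kilobase. Chuk and Rela remained on top in PBS+PBS, and Rela, Nfkb2 and Relb in PBS+TNF.

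The mix of subunit transcripts shifted with TNF. Of the summed CPM per kilobase of the 5 subunits, Rela made up 47.3% ± 7.27 in PBS+PBS and 32.3% ± 2.24 in PBS+TNF (SD, n = 4). The Rela share was 36.5% to 52.1% in the first group and 29.4% to 34.4% in the second. Relb went from 13.1% ± 2.86 to 23.3% ± 2.59, Rel from 1.77% ± 0.254 to 5.80% ± 1.03 and Nfkb2 from 22.8% ± 6.01 to 30.7% ± 1.53. The Nfkb1 share went down from 14.9% ± 1.15 to 8.01% ± 0.492. Except for Nfkb2, whose highest PBS+PBS share of 31.7% lay inside the PBS+TNF range, the shares of the 2 groups did not overlap. They point the same way with canonical lengths, where Nfkb1 went from 27.9% ± 1.90 to 15.9% ± 0.945 and Rela from 39.1% ± 5.91 to 28.3% ± 2.03. No test was made of the shares.

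Among the 4 kinase-side genes, Chuk held 69.6% ± 1.43 of the summed CPM per kilobase in PBS+PBS and 68.0% ± 2.16 in PBS+TNF. The Ikbkg share was 12.3% ± 2.14 and 5.60% ± 0.788, and that of Map3k14 12.2% ± 1.60 and 19.9% ± 2.16, without overlap in either gene. With canonical lengths Ikbkg held the larger share of the pair in PBS+PBS, 22.0% ± 3.74 against 8.50% ± 1.18 for Map3k14. In PBS+TNF this order was turned, with 10.7% ± 1.40 for Ikbkg and 14.8% ± 1.62 for Map3k14.

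**Figure D3:**
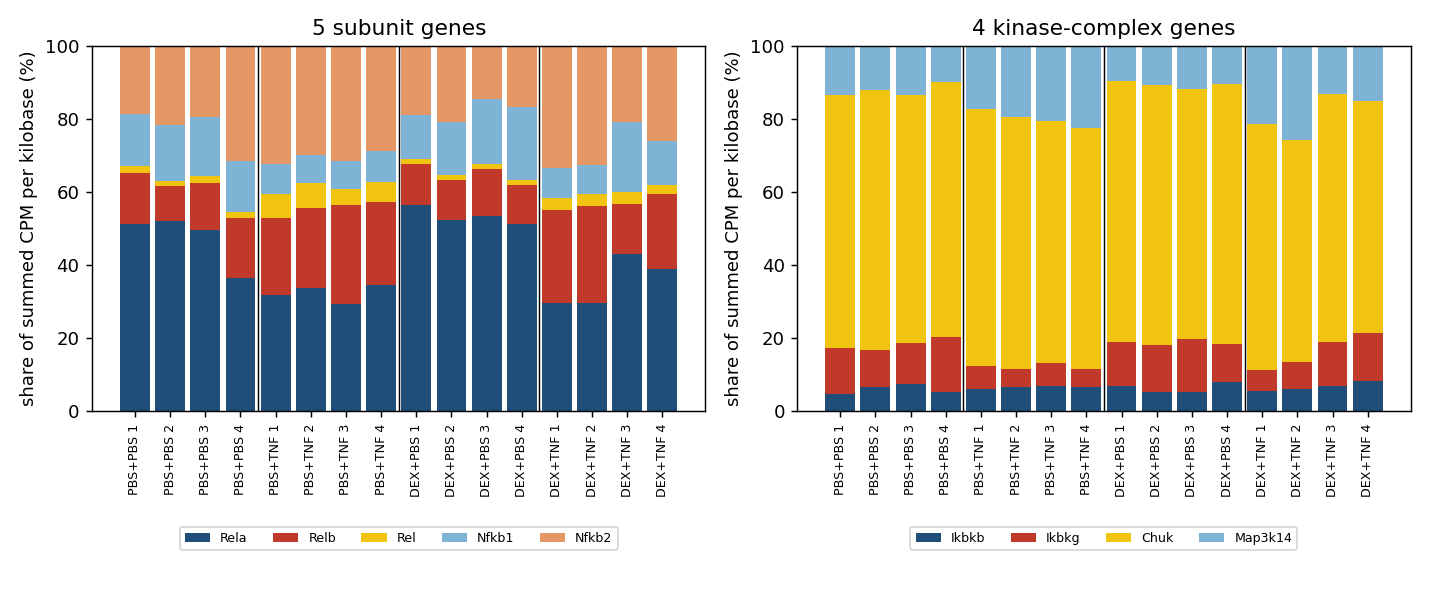
Share (y axis, percent) of each gene in the summed CPM per kilobase of merged exons of the 5 subunit genes (left) and the 4 kinase-side genes (right), 1 bar per library (x axis), with lines between the groups. Rela fills 36.5% to 52.1% of the left bars in PBS+PBS and 29.4% to 34.4% in PBS+TNF, and Chuk is the largest part of every bar on the right.

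DEX alone moved none of the 9 genes past the test. In DEX+PBS versus PBS+PBS, 0 of 9 genes were called in edgeR, 0 had an unadjusted p under 0.05, and DESeq2 called 0. Across all genes, 0.00847% were called, which is 1 gene, Sgk1. Log2 fold changes ran from -0.43 for Map3k14 to 0.21 for Rela. Map3k14 was 5.22, 5.06, 5.38 and 4.84 normalized CPM in DEX+PBS, within a narrower band than in PBS+PBS but overlapping it, with a 95% interval of the log2 fold change from -1.09 to 0.23. For Rel the level was 1.21, 1.69, 1.15 and 1.28 and the interval was -1.60 to 1.17. Relb was 6.07, 7.60, 6.99 and 6.37, with an interval of -1.37 to 1.25. For Rel and Relb, a shift of 2-fold in either direction thus lay inside the interval. These intervals rest on 1 spread per gene, shared by the 4 groups. For Relb, the SD was 2.10 normalized CPM in PBS+PBS and 0.678 in DEX+PBS, but 65.5 in DEX+TNF. The interval widths here thus also reflect the spread within DEX+TNF. Chuk and Ikbkg had narrower intervals, -0.61 to 0.23 and -0.59 to 0.22.

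When TNF followed DEX, the 4 libraries fell into a high and a low pair. Nfkb2 was 234 and 255 normalized CPM in DEX+TNF libraries 1 and 2, above every PBS+TNF library, and 13.1 and 36.5 in libraries 3 and 4. Relb behaved alike, with 114 and 134 in libraries 1 and 2 and 5.61 and 18.5 in libraries 3 and 4. Rela was 85.8, 95, 11.2 and 22.5 in libraries 1 to 4. In each of these genes, libraries 1 and 2 reached the TNF range or exceeded it, and libraries 3 and 4 lay below all PBS+TNF libraries.

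Nfkb1 showed the same split, at 92.1 and 97.5 against 19.8 and 26.9. Rel was 22.2, 25.0, 1.94 and 3.34, compared with 22.9 to 47.6 in PBS+TNF, so that library 2 lay inside that range and the other 3 lay below it. Map3k14 was 16.5 and 18.5 in libraries 1 and 2 and 7.04 and 6.43 in libraries 3 and 4. Over the 9 genes, library 3 lay inside the range of PBS+PBS or DEX+PBS for 9 of 9 and library 4 for 5 of 9. Library 1 lay inside the PBS+TNF range for 6 of 9 and library 2 for 3 of 9, with 5 further genes of library 2 above it. The share of all genes inside these ranges was not computed, so the counts only describe where the 9 genes lay.

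**Figure D4:**
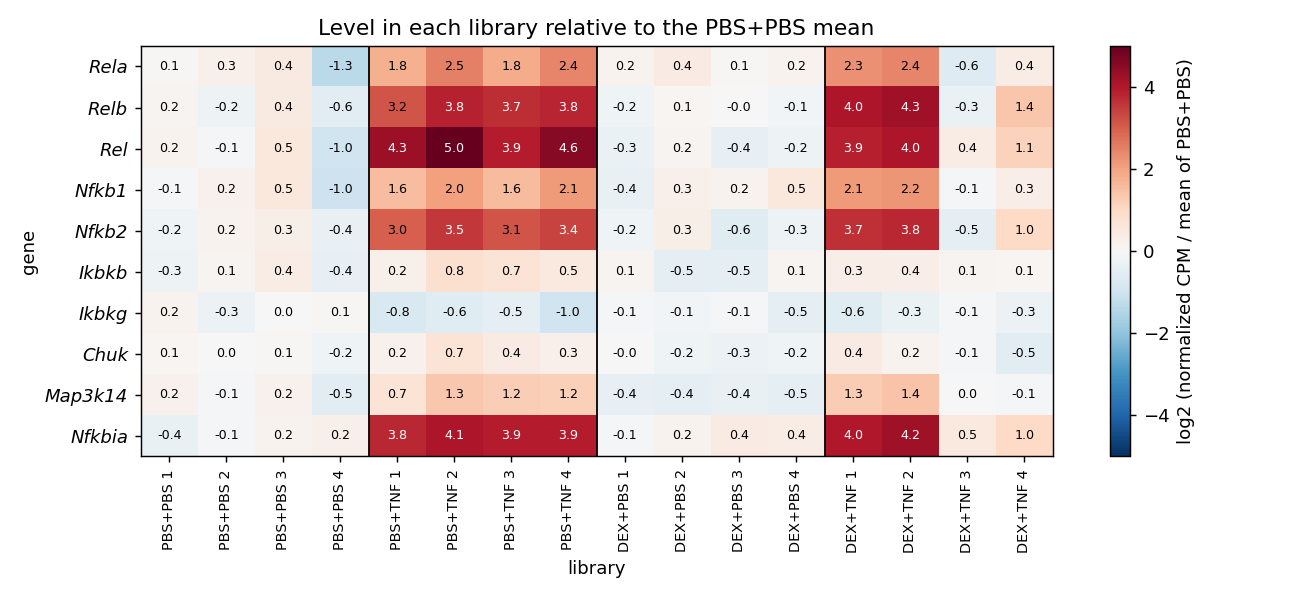
Log2 ratio (colour and printed value) of the normalized CPM in each library (x axis) to the mean of the 4 PBS+PBS libraries, for the 9 genes and Nfkbia (y axis). DEX+TNF libraries 1 and 2 resemble the PBS+TNF libraries in the 5 subunits, Map3k14 and Nfkbia, and DEX+TNF libraries 3 and 4 are close to the groups without TNF, with values of 1.0 to 1.4 for Relb, Rel, Nfkb2 and Nfkbia in library 4.

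Against DEX+PBS, 3 of 9 genes were called higher in DEX+TNF and 0 of 9 lower. These were Relb with a log2 fold change of 3.33 (± 0.66 SE, adjusted p = 0.0456 by edgeR), Rel with 3.27 (± 0.64 SE, adjusted p = 0.0456) and Nfkb2 with 3.02 (± 0.63 SE, adjusted p = 0.0491). Across all genes 0.322% were called higher and 0.0169% lower, 0.339% in all. Map3k14 with 1.24 (± 0.31 SE, adjusted p = 0.114), Rela with 1.39 (± 0.51 SE, adjusted p = 0.284) and Nfkb1 with 1.29 (± 0.44 SE, adjusted p = 0.245) did not pass. The 3 calls were fragile, since the number of called members was 0 when any of 14 of the 16 libraries was left out, controls included, 6 without DEX+TNF library 3 and 4 without library 4. It was also 0 without the filter on low counts, and in a fit of the 2 groups alone. With DESeq2 it was 4, and with upper-quartile or median-of-ratios factors it was 2. Without DEX+TNF libraries 3 and 4 together, which were picked for their low levels of TNF-induced genes, 6 genes were called, with log2 fold changes from 1.77 for Map3k14 to 4.20 for Relb. That choice of libraries favored such calls, so they are a description only. The 4 libraries of DEX+TNF lay above all of DEX+PBS for Rel and Map3k14, 2 of 9 genes, where 2.06% of all genes did and 2.63% lay below.

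Between the 2 groups that received TNF, no difference was detected for the 9 genes. In DEX+TNF versus PBS+TNF, 0 of 9 were called in edgeR and 0 in DESeq2, and 1 had an unadjusted p under 0.05. That gene was Rel, with a log2 fold change of -1.37 (95% interval -2.54 to -0.20, edgeR adjusted p = 0.330). Across all genes, 0.22% were called higher and 0.119% lower, 0.339% in all. The other 4 subunits had estimates from -0.57 for Rela to -0.37 for Relb, and Ikbkg had 0.38 (95% interval -0.03 to 0.79). The 95% intervals were -1.61 to 0.48 for Rela, -1.62 to 0.88 for Relb, -1.28 to 0.53 for Nfkb1 and -1.64 to 0.81 for Nfkb2. A 2-fold lowering thus lay inside each of these 4 intervals. They use the spread shared by the 4 groups, whereas the SD of Relb was 17.4 normalized CPM in PBS+TNF and 65.5 in DEX+TNF. Without DEX+TNF libraries 3 and 4, the estimates turned positive for Rela (0.19), Relb (0.50), Nfkb1 (0.31), Nfkb2 (0.45) and Map3k14 (0.20), none of them called, while Rel stayed negative at -0.52 (adjusted p = 0.565). Leaving out libraries picked for low TNF-induced genes favored higher estimates for genes that rise with TNF, so these values are a description only. For Relb, leaving out library 3 alone turned the sign, to 0.02.

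The interaction addressed whether DEX changed the response, as the log2 fold change of DEX+TNF over DEX+PBS minus that of PBS+TNF over PBS+PBS. None of the 9 genes was called by edgeR or DESeq2 (0 of 9), 0 had an unadjusted p under 0.05, and 0% of all genes were called in edgeR, with 642 of 11809 genes at an unadjusted p under 0.05. The estimate for Rel was -1.16 (95% interval -2.98 to 0.66, edgeR adjusted p = 1) and that for Ikbkg 0.57 (95% interval -0.01 to 1.14, adjusted p = 0.904). The interval for Relb ran from -2.12 to 1.51, so that a 2-fold change of its TNF response in either direction lay inside it, whereas those for Chuk (-0.78 to 0.40) and Ikbkb (-0.86 to 0.46) did not reach 2-fold. Without DEX+TNF libraries 3 and 4, the interaction was -0.30 for Rel, 0.56 for Relb and 0.61 for Nfkb2, all with an adjusted p over 0.94. Here too, the choice of these libraries by their low TNF-induced genes favored higher values.

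The wider pathway, 36 genes around these 9 that were listed by role with earlier results known, was followed in the same fits. Of them 34 were tested, and after TNF alone 18 were called higher and 0 lower. Across all 11809 genes tested, 7.15% were called higher and 5.35% lower, the shares to set beside the counts per list below. The median log2 fold change was 1.06 in the 34 genes against -0.03 over all genes. Among the IkB proteins, 5 of 6 rose, led by Nfkbia at 3.92, Bcl3, an atypical IkB that works with p50 and p52, at 3.73, and Nfkbie at 3.62. Nfkbiz was the exception at 0.59 (edgeR adjusted p = 0.416). Between the TNF receptor and IKK, 5 of 15 rose. These included Birc3, a ubiquitin ligase of the receptor complex, at 4.41, the receptor gene Tnfrsf1b at 3.38 and the kinase gene Ripk1 at 1.59. Tnfrsf1a, the main TNF receptor, had 0.43 (adjusted p = 0.431).

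Of 5 inhibitors, 4 rose, with the deubiquitinase gene Tnfaip3, which encodes A20, at 4.05 and its partners Tnip1 and Tnip2 at 3.25 and 1.21. Of the receptors and NIK-controlling genes of the noncanonical route, 2 of the 4 tested rose, namely Tnfrsf11a at 2.62 and Tnfrsf12a at 2.60. Traf3, which targets NIK for degradation, had 1.02 (edgeR adjusted p = 0.0987) beside the rise of Map3k14. Among the 4 genes of the IKK-related kinases and their adaptors, Ikbke at 2.49 and Tbk1 at 1.86 rose, beside 0.57 for Ikbkb and 0.40 for Chuk. The highest adjusted p among all the genes named here as having risen was 0.00799. In DEX+PBS versus PBS+PBS, in DEX+TNF versus PBS+TNF and in the interaction, 0 of 34 were called, where 0.00847%, 0.339% and 0% of all genes were. In DEX+TNF versus DEX+PBS, 3 of 34 were called higher, beside 0.322% of all genes. These were Nfkbia at 3.03, Tnfaip3 at 4.47 and Tnip1 at 2.67, each with an edgeR adjusted p of 0.0456. The 3 calls were as fragile as those of the members. Leaving out any single library other than DEX+TNF library 3 or 4 left 0 of all genes called.

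Across the 16 libraries, log2 CPM of the subunits moved together, with Pearson r from 0.943 to 0.991 over the 10 pairs. The points share the TNF and non-TNF groups, so r was also taken after removing group means, where it was 0.874 to 0.973. These points still share the split within DEX+TNF. Map3k14 followed the subunits at 0.908 to 0.948, Chuk at 0.726 to 0.786 and Ikbkb at 0.719 to 0.763, whereas Ikbkg ran opposite at -0.813 to -0.759. With group means removed, these ranges were 0.840 to 0.912 for Map3k14, 0.605 to 0.718 for Chuk, 0.300 to 0.456 for Ikbkb and -0.564 to -0.382 for Ikbkg.

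Among 7808 other genes averaging 5 CPM or more, those most like each member over the 16 libraries were named by r, as a description. Relb was most like Icam1 (r = 0.991) and Ifngr2 (0.985), and Nfkb2 was most like Parp14 (0.989) and Mapkapk3 (0.987). For Rel the genes were Apaf1 (0.989) and Sbno2 (0.987), for Rela Stk40 (0.987) and St14 (0.983), and for Nfkb1 Tgm2 (0.982) and Arel1 (0.975). The first-named gene remained first with group means removed for Rela, Relb, Nfkb1 and Nfkb2, and for Rel it became Clic4 (0.985). On the kinase side the likeness was weaker for Ikbkb with Zc3h12a (0.880) and H2-Q4 (0.877), Ikbkg with Bambi (0.897) and Mlh3 (0.893), and Chuk with Tasor2 (0.929) and Ddx5 (0.924). Map3k14 was most like Cd2ap (0.967) and Pogk (0.966). The first-named genes of these 4 changed when group means were removed.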

How the data were processed

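The authors deposited whole-number read counts, not normalized, for 55414 Ensembl genes in 16 libraries. Per the labels, libraries were prepared with a stranded mRNA kit, and the submitters' processing notes name FastQC 0.12 and STAR 2.7.10a with the mm39 assembly. The study's methods name GENCODE M30. The counting program and its use of strand are not given in the sources used here. Groups and replicate numbers came from the labels. The study's text describes the libraries as made from individual mice. Intervals cover no preparation bias, and reads without molecular identifiers are not independent molecules.

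Gene names, coordinates and exon lengths came from GENCODE M39 on GRCm39, which held 54749 of the identifiers; the remaining rows carried 0.00519% of counts. Genes were kept with filterByExpr (11809) and scaled by TMM. Group means were modelled on all 16 libraries together by robust quasi-likelihood in edgeR 4.0.16 (R 4.3.3). Adjusted p-values are Benjamini-Hochberg values over all 11809 genes within a contrast, and 0.05 was the threshold. The SE is the size of the log2 fold change divided by the square root of F, and 95% intervals use the residual and prior degrees of freedom. Normalized CPM per kilobase used merged exons. Log2 CPM for correlations had a prior count of 2. The script was tested on simulated data. Promoter sequences came from RefSeq (GRCm38.p6).

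Named genes were the 9 members, Nfkbia, Sgk1, up to 3 called genes with the largest change after TNF per pathway list, and the 2 genes most like each member. Psd, 4833438C02Rik, G6pdx, Fam3a, Traf3, Tnfrsf1a, Nfkbiz and Clic4 were added after their values were seen. The 9 members and all lists were chosen with earlier results of these data known. The tests were repeated with DESeq2 1.42.0, with other scaling (median-of-ratios, upper-quartile, TMM without the Defa genes), with no filter or one at 5 CPM, on the compared groups alone, with a replicate block, and without single libraries. Per-kilobase levels and shares were recomputed with the longest and, added after seeing the data, the canonical transcript.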

Additional observations from a re-analysis of the deposited data

How the results depend on the processing

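In PBS+TNF versus PBS+PBS all 9 genes kept their direction in every alternative run, with 5 to 7 called; the number of all genes called was 916 to 1698 with 1 library left out (916 without PBS+PBS library 1, 961 without library 2) and 2061 with DESeq2. Upper-quartile factors moved the center of the log2 fold changes of all genes there from -0.03 to -0.15 and the share of higher calls from 57.2% to 46.2%, while 7 members were still called.

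DEX+TNF versus DEX+PBS moved most. Members called numbered 0 with no filter, with the compared groups alone and with the replicate block, 6 without DEX+TNF libraries 3 and 4, and 0 to 6 with 1 library left out. They numbered 4 with DESeq2 and 2 with upper-quartile or median-of-ratios factors. With the filter at 5 CPM or factors without the Defa genes they stayed at 3. All genes called there, 40, became 6 with no filter, 0 with the compared groups alone, 0 with the block, 1286 without both libraries, 259 with DESeq2 and 0 to 362 with 1 library left out, being 362 without DEX+TNF library 3, 230 without library 4 and 0 without any other. In DEX+TNF versus PBS+TNF, also 40, they became 0 with the compared groups alone, 0 without both libraries, 16 with the block, 274 with DESeq2 and 0 to 102 with 1 library left out. It was 0 to 1 without any PBS+TNF library or DEX+TNF library 3 or 4, 23 to 26 without PBS+PBS library 2 or DEX+PBS library 1 or 2, 64 without PBS+PBS library 4, and 89 and 102 without DEX+TNF libraries 1 and 2. In DEX+PBS versus PBS+PBS, 1 became 2 without both libraries, 7 with DESeq2 and 0 to 2 with 1 library left out. The interaction gave 9 genes with DESeq2 and 0 to 1 with 1 library left out. DEX+TNF libraries 3 and 4 were picked for low levels of TNF-induced genes, which favored more calls against DEX+PBS without them. The cause of these shifts was not tested.

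Signs turned only in estimates that were not called. Without DEX+TNF libraries 3 and 4 together, DEX+TNF versus PBS+TNF became 0.19 for Rela, 0.50 for Relb, 0.31 for Nfkb1, 0.45 for Nfkb2 and 0.20 for Map3k14, and the interaction became 0.0743 for Chuk, 0.14 for Nfkb1, 0.61 for Nfkb2 and 0.56 for Relb. For genes that rise with TNF, that choice of libraries favored higher values. With 1 library left out, DEX+PBS versus PBS+PBS ran from -0.27 to 0.0038 for Ikbkb, -0.0573 to 0.40 for Nfkb1, -0.40 to 0.0223 for Rel, -0.0540 to 0.39 for Rela and -0.21 to 0.12 for Relb. DEX+TNF versus PBS+TNF ran from -0.93 to 0.0160 for Relb, and the interaction from -0.18 to 0.33 for Map3k14, -0.76 to 0.13 for Nfkb2 and -0.87 to 0.0780 for Relb.

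The replicate numbers were not treated as pairs, since only some same-numbered pairs deviated together. Deviations from group means correlated between same-numbered libraries with r from -0.581 to 0.525 (median 0.198), over 0.1 in 13 of 24 pairs. Between other numbers the median was -0.0668, with 25 of 72 pairs over 0.1. The best partner among the 4 libraries of another group had the same number in 20 of 48 cases. By median, same-numbered libraries were thus more alike, and these values do not settle whether the numbers mark pairs. With the replicate block, the interaction of Map3k14 was -0.0077, and the members called were 7 after TNF alone and 0 in the other comparisons, so that the 3 calls in DEX+TNF versus DEX+PBS were lost.

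Per-kilobase levels moved by more than their SD in 24 of 36 cases with the longest transcript and 25 with the canonical one, and shares in 25 and 28. Rel rests on as few as 6 counts in a library.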
